A study of Mus musculus with 22 samples.

Results

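Kainate and delta glutamate receptors were followed through 8 genes chosen by name: the 5 kainate receptor subunits Grik1 to Grik5, the auxiliary subunits Neto1 and Neto2, and the delta receptor subunit Grid1. Each had 1 row among the 37786 genes of the count table, and all 8 passed the count minimum (10 or more counts in 10 or more mice) that left 17524 genes to be tested. The values came from RNA sequencing of whole anterior cingulate cortex (ACC) tissue of 12 control and 10 stimulated mice. All were adult male wildtype C57BL/6J mice. Both groups carried, by the methods of the study, the light-gated channel ChR2 fused to EYFP in the basolateral amygdala (BLA), from an AAV5 vector with the CaMKIIa promoter. Each mouse had a unilateral optic fibre at the ACC. Stimulated mice (stim) received blue light on the BLA fibres over 9 sessions, and in controls (ctrl) the light stayed off, so that the virus, the fibre and the handling were shared. The light reached terminals whose cell bodies lie in the amygdala, and the RNA came from all ACC cells. By the same methods, the ACC of both sides was taken, days after the last session.

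Kainate receptors are glutamate-gated channels built as tetramers. The low-affinity subunits GluK1 to GluK3 (Grik1 to Grik3) can form channels alone, while the high-affinity subunits GluK4 and GluK5 (Grik4 and Grik5) need one of them as a partner. In the cortex they act on both sides of the synapse and tune transmitter release and excitability, and the Neto proteins bind the channel and slow its closing and desensitization. GluD1 (Grid1) is a relative that does not pass current on binding glutamate and instead links, through cerebellins, to presynaptic neurexins.

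The batch that the original comparison took as a covariate is not in the labels. No run is named there either, and library number 7 is absent. The numbers were split here where controls follow stimulated mice. This gave 2 runs, 1 to 11 with 6 controls and 4 stimulated mice, and 12 to 23 with 6 of each. Whether these runs are the batches of the study is not stated in the labels. Every test between groups took the run as a covariate unless stated otherwise. Total counts ranged from 24563116 to 36542883 in controls and from 23090483 to 43668462 in stimulated mice, and the members had between 257 and 6387 counts in a library. The 10 markers of cortical excitatory neurons, such as Slc17a7 and Tbr1, summed to 3397 to 8071 CPM in a mouse. CPM (counts per 10 to the power 6 of the scaled library total) are not corrected for gene length. Markers of the neighbouring striatum were low, at 62.5 to 110 CPM over 6 genes. Oligodendrocyte markers summed to 19856 CPM in ctrl replicate 9 and 14602 CPM in ctrl replicate 11, against 2372 to 6331 CPM in the other 20 mice, and results that moved with these mice are given with and without them.

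Promoters were available in the RefSeq table (GRCm38.p6) for 5 of the 8 genes, and 3 are shown, taking the 250 bases before the start given there. Grik3 is shown because it belonged to 2 of the 3 gene pairs that varied together among mice. Grid1 did so too but had no promoter in the table. Grik2 and Neto2 are shown because they differed most between the runs. Capitals mark the GC box, searched as GGGCGG on both strands.
Grik3: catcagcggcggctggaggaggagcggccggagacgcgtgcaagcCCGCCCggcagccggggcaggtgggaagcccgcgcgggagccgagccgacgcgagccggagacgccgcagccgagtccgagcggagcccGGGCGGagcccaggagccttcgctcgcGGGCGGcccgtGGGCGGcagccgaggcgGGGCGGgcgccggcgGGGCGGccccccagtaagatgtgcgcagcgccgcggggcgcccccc
Grik2: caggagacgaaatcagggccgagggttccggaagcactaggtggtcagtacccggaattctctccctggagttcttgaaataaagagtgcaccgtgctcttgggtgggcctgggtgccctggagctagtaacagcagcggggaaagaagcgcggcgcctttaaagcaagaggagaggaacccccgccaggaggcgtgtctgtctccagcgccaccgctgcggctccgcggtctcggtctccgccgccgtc
Neto2: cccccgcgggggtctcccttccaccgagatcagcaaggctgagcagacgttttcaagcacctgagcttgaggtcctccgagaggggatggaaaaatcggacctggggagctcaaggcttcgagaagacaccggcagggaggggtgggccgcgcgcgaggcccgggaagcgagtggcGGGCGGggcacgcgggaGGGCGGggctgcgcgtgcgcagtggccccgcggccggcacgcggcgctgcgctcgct
The Grik3 window lies at chr4:125490446-125490695 on the plus strand, and those of Grik2 (chr10:49788755-49789004) and Neto2 (chr8:85700925-85701174) on the minus strand. The last bases of the Grik2 window lie inside the gene model used for exon lengths, which begins at 49788766 on that strand. GC content was 82% for Grik3, 62.8% for Grik2 and 72% for Neto2, against a median of 52.4% over the 32851 promoters of the table. The Grik3 window held 42 CpG pairs, Grik2 20 and Neto2 30, against a median of 6. There were 6 GC boxes in the Grik3 window, 2 in that of Neto2 and 0 in that of Grik2, and 32.7% of all promoters held at least 1. The TATA box (TATAAA, in 12.4% of promoters), the CCAAT box (CCAAT, in 33.8%) and the core TGACG of the cyclic AMP response element (in 17.8%), each searched on both strands, had 0 matches in the 3 windows, and no matches overlapped one another. Neto2 has another start in the table, with a window at chr8:85691010-85691259 on the minus strand that is not shown, and this one had 42.4% GC, 0 CpG pairs, 0 GC boxes and 1 CCAAT box. These windows are described only as sequence, since the counts measure transcripts and not the use of a start site.

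Levels between genes were compared as CPM per kilobase of exon (RPKM), over the union of each gene's exons, since a longer transcript gives more reads. Grik5 stood highest, at 24.9 ± 4.67 RPKM (mean ± SD, n = 22), with 18.1 in the lowest mouse and 32.3 in the highest. Neto2 followed at 9.21 ± 3.04 RPKM and Neto1 at 5.79 ± 1.32 RPKM. Grik5 was above Neto2 in 22 of 22 mice, Neto2 above Neto1 in 22 of 22, and Neto1 above Grik3 in 21 of 22, so this upper part of the order held within almost every mouse.

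Below them the subunits lay close together. Grik3 had 4.29 ± 1.11 RPKM and Grik4 4.14 ± 1.12 RPKM (SD, n = 22), and Grik3 was the higher of the pair in only 13 of 22 mice. Grik2 at 3.28 ± 1.004 RPKM and Grid1 at 3.04 ± 0.443 RPKM were likewise not separated, with Grik2 higher in 12 of 22 mice. Grik4 was above Grik2 in 20 of 22 mice, and Grid1 above Grik1, the lowest at 2.29 ± 0.593 RPKM, in 22 of 22. The place of Grik1 depended on the length used: its exons span 6721 bases together but 3655 bases in the longest single transcript, and with that length it had 4.21 RPKM and Grid1 was lowest at 3.17 RPKM. The place of Grik2 against Grik4 depended on the length too. With the longest transcript Grik2 stood next after Neto1, at 4.61 RPKM, and above Grik4 at 4.19 RPKM. The first 3 places stayed with Grik5, Neto2 and Neto1.

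**Figure D1:**
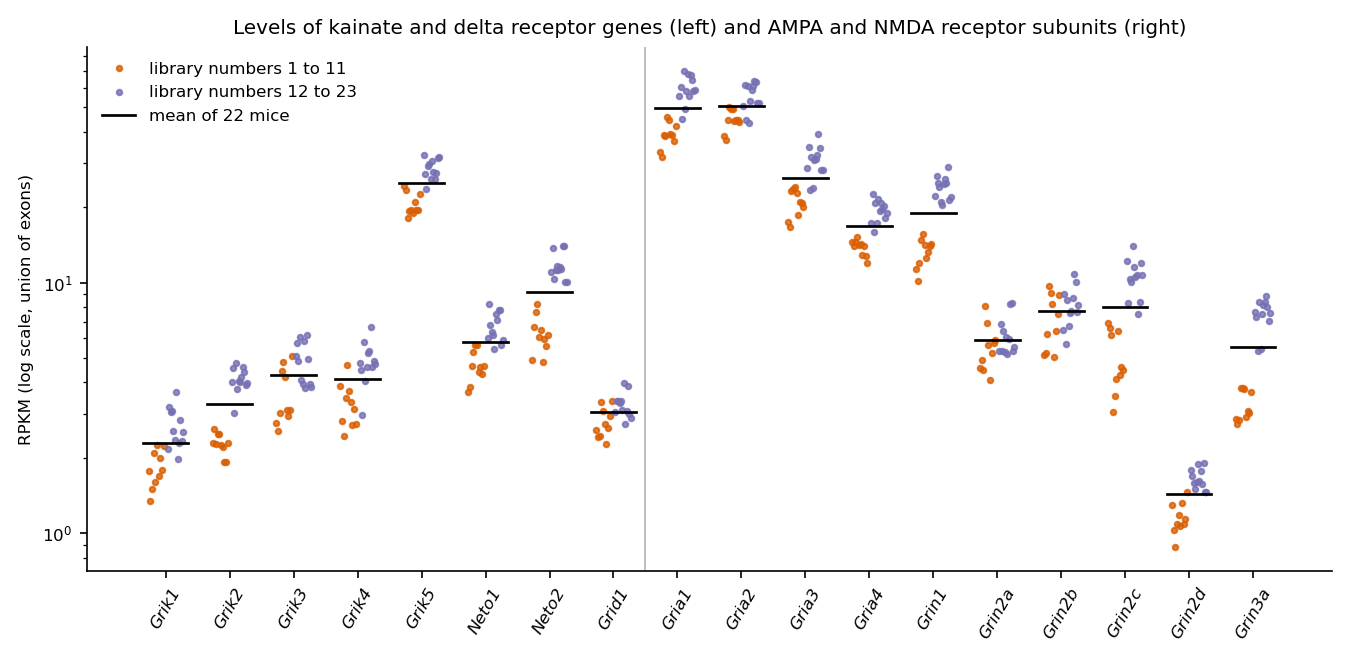
RPKM on a log axis for the 8 members (left of the line) and 10 AMPA and NMDA receptor subunits (right), with 1 point per mouse coloured by library run and a bar at the mean of 22 mice. Grik5, at 24.9 RPKM, is the one member within the range of the AMPA receptor subunits, whose means run from 16.9 to 50.5 RPKM.

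Grik5 made up 64.2 ± 3.84% of the summed RPKM of the 5 kainate subunits (SD, n = 22), with 56.6% in the lowest mouse and 71.6% in the highest. The share was 63.9 ± 4.22% in controls (n = 12) and 64.5 ± 3.53% in stimulated mice (n = 10), a difference under the spread between mice. With the longest transcript as length the share was 64.9 ± 3.68%. Over the union of exons, Grik3 held 11.1 ± 2.21%, Grik4 10.6 ± 1.73%, Grik2 8.26 ± 1.25% and Grik1 5.89 ± 1.05%, so that the low-affinity subunits together held 25.2 ± 3.12%. With the longest transcript, Grik3 held 8.80 ± 1.79%, Grik4 8.51 ± 1.45%, Grik2 9.22 ± 1.40% and Grik1 8.59 ± 1.51%. The order of these smaller shares therefore depended on the length used. Transcript shares do not give the share of subunits in assembled channels. The kainate subunits summed to 38.9 ± 7.42 RPKM, and the AMPA subunits Gria1 to Gria4 to 3.705 ± 0.432 times that level within the same mouse, and the NMDA subunits to 1.21 ± 0.145 times. Among NMDA subunits Grin3b had at most 9 counts and was not tested.

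The comparison of stimulated mice with controls asked whether the repeated light changed the transcripts of the ACC, and among these 8 genes no difference was detected. Fold changes ran from 0.94 for Neto2 to 1.02 for Grik5, and no member passed an adjusted p of 0.05 or an unadjusted p of 0.05 in edgeR's quasi-likelihood test. Of all 17524 genes, 0 (0%) passed the adjusted threshold and 2015 (11.5%) the unadjusted one. With the DESeq2 Wald test 33 genes and with limma voom 1 gene passed the adjusted threshold, and 0 of them were members. With group as the only term 0 of 8 members had an unadjusted p under 0.05, beside 3.61% of all genes. There were 5 members higher and 3 lower in stimulated mice, and the log2 fold change had a median of 0.01, against 0.01 over all genes. The absolute log2 fold change had a median of 0.03 over the members and 0.10 over all genes. In bulk tissue, fewer cells of a type and less RNA per cell cannot be told apart.

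**Figure D2:**
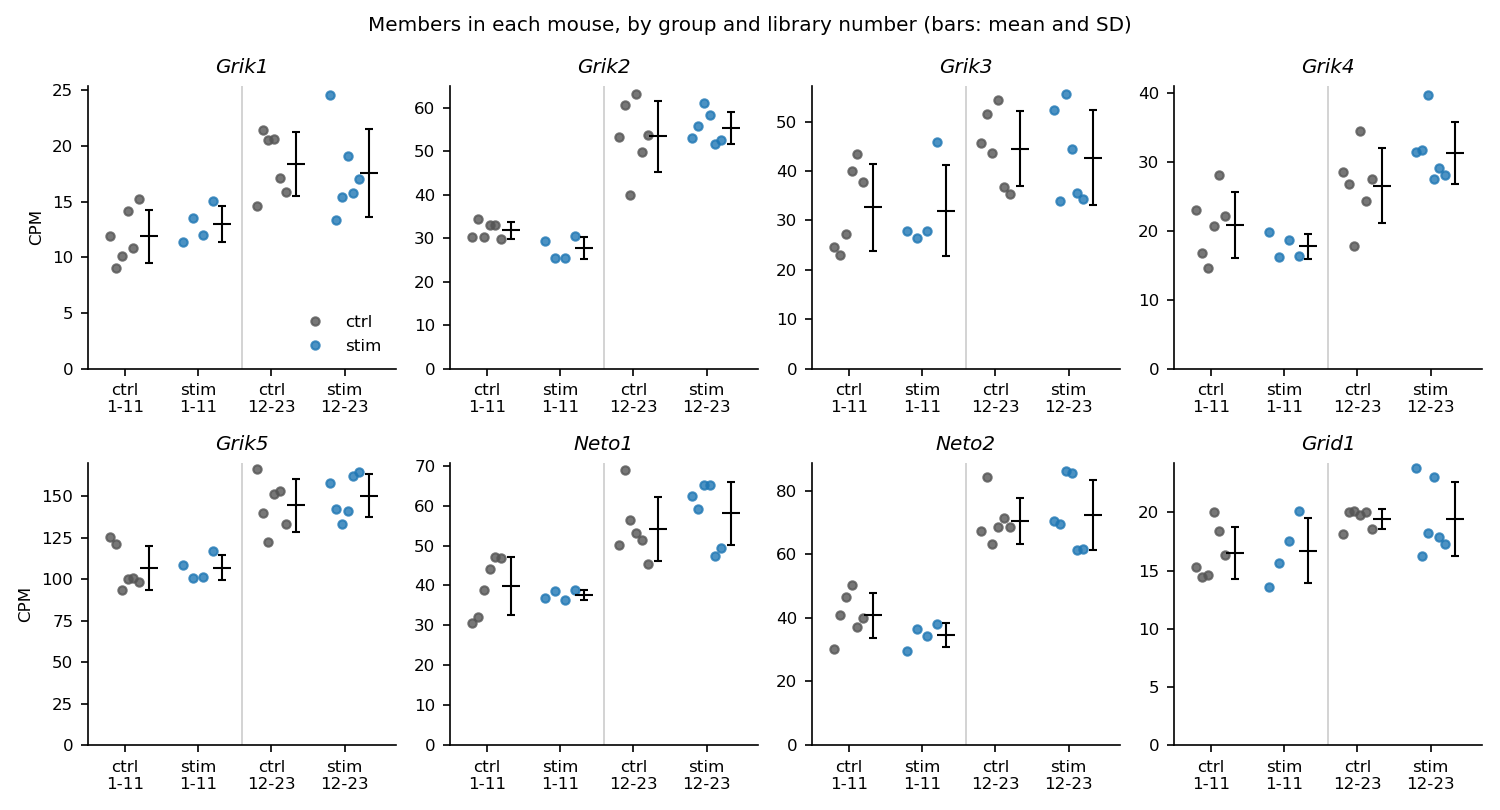
CPM of each member in each mouse (points), by group and run of library numbers, with the mean and SD at the right of each column. Controls and stimulated mice overlap in each panel over both runs. Within each group the mean of library numbers 12 to 23 lies above that of 1 to 11. The mice of both runs overlap in each panel except those of Grik2 and Neto2. The share of all genes without overlap was not computed.

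Among the low-affinity subunits, Grik2, whose product GluK2 is the main channel-forming kainate subunit of the forebrain, had 29.8 to 63.1 CPM in controls (median 37.2) and 25.4 to 61.1 CPM in stimulated mice (median 52.2). The ranges overlap almost entirely, and both groups split into a low and a high set of mice by run. Within library numbers 1 to 11 controls had 29.8 to 34.4 CPM (median 31.7), and the stimulated mice had 25.4, 25.5, 29.3 and 30.4 CPM. Within numbers 12 to 23 the ranges were 40.1 to 63.1 CPM (median 53.6) in controls and 51.8 to 61.1 CPM (median 54.5) in stimulated mice. The log2 fold change with the run as covariate was −0.06 ± 0.07 (SE; adjusted p = 0.770, edgeR), with a 95% interval of 0.87- to 1.06-fold. Leaving out ctrl replicates 9 and 11, which had 40.1 and 49.7 CPM of Grik2, it was −0.12 ± 0.06 with an unadjusted p of 0.0478 (adjusted p = 0.612, edgeR). It was then 1 of 8 members past the unadjusted threshold, beside 8.16% of all genes.

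Grik1, whose product GluK1 is prominent in interneurons, ran from 9.05 to 21.5 CPM in controls (median 14.9) and from 11.4 to 24.6 CPM in stimulated mice (median 15.2). Its log2 fold change was 0.02 ± 0.11 (SE; adjusted p = 0.960), with an interval of 0.87- to 1.18-fold. Grik3, whose product GluK3 needs high glutamate to open, ran from 22.9 to 54.4 CPM (median 38.8) and from 26.4 to 55.6 CPM (median 34.96), and gave −0.05 ± 0.13 (adjusted p = 0.914), with an interval of 0.81- to 1.16-fold. The interval of Grik3 was the widest of the 8 genes.

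Among the high-affinity subunits, Grik5, whose product GluK5 is the usual partner of GluK2, had 93.8 to 167 CPM in controls (median 124) and 101 to 164 CPM in stimulated mice (median 137). Its log2 fold change was 0.03 ± 0.06 (SE; adjusted p = 0.870), and the interval of 0.93- to 1.12-fold was the narrowest of the members. It was close to 0 in both runs, at 0.02 in library numbers 1 to 11 and 0.02 in 12 to 23. Grik4, the other high-affinity subunit, ran from 14.6 to 34.4 CPM in controls (median 23.7) and from 16.1 to 39.8 CPM in stimulated mice (median 27.8). Its fit gave 0.03 ± 0.12 (adjusted p = 0.943), with an interval of 0.86- to 1.205-fold.

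Grik4 was the member whose values differed most between the runs in this comparison. In library numbers 1 to 11 the stimulated mice had 16.1, 16.3, 18.7 and 19.9 CPM, and controls 14.6 to 28.1 CPM (median 21.4), a log2 fold change of −0.22 ± 0.16 (unadjusted p = 0.184, edgeR). In numbers 12 to 23 stimulated mice had 27.5 to 39.8 CPM (median 30.2) and controls 17.7 to 34.4 CPM (median 27.1), a log2 fold change of 0.20 ± 0.14 (unadjusted p = 0.152, edgeR). The 2 effects differed by 0.47 ± 0.22 (unadjusted p = 0.0399, adjusted p = 0.607, edgeR interaction), and 8.01% of all genes had an unadjusted p under 0.05 for that difference. The other 7 members gave unadjusted p-values from 0.0686 to 0.916. The lowest control of the second run, at 17.7 CPM, was ctrl replicate 9, and without ctrl replicates 9 and 11 the difference was 0.31 ± 0.21 (unadjusted p = 0.139). Within the runs taken alone, 0 of 8 members had an unadjusted p under 0.05, beside 5.56% of all genes in library numbers 1 to 11 and 12.4% in 12 to 23.

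Neither auxiliary subunit passed the test. Neto1 had 30.6 to 68.9 CPM in controls (median 47.0) and 36.3 to 65.1 CPM in stimulated mice (median 48.3), and a log2 fold change of 0.02 ± 0.09 (SE; adjusted p = 0.958). Neto2 had 30.2 to 84.2 CPM (median 56.7) and 29.6 to 86.1 CPM (median 61.7), and a log2 fold change of −0.08 ± 0.09 (adjusted p = 0.727), the largest in size of the members. The intervals were 0.90- to 1.14-fold for Neto1 and 0.83- to 1.07-fold for Neto2. Grid1, the delta subunit, had 14.5 to 20.1 CPM in controls (median 18.5) and 13.6 to 23.8 CPM in stimulated mice (median 17.7), and its log2 fold change was 0.01 ± 0.08 (adjusted p = 0.982), with an interval of 0.90- to 1.13-fold. From its centre to either end, the 95% interval had a median length of 0.18 on the log2 scale over the members and 0.21 over all genes.

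**Figure D3:**
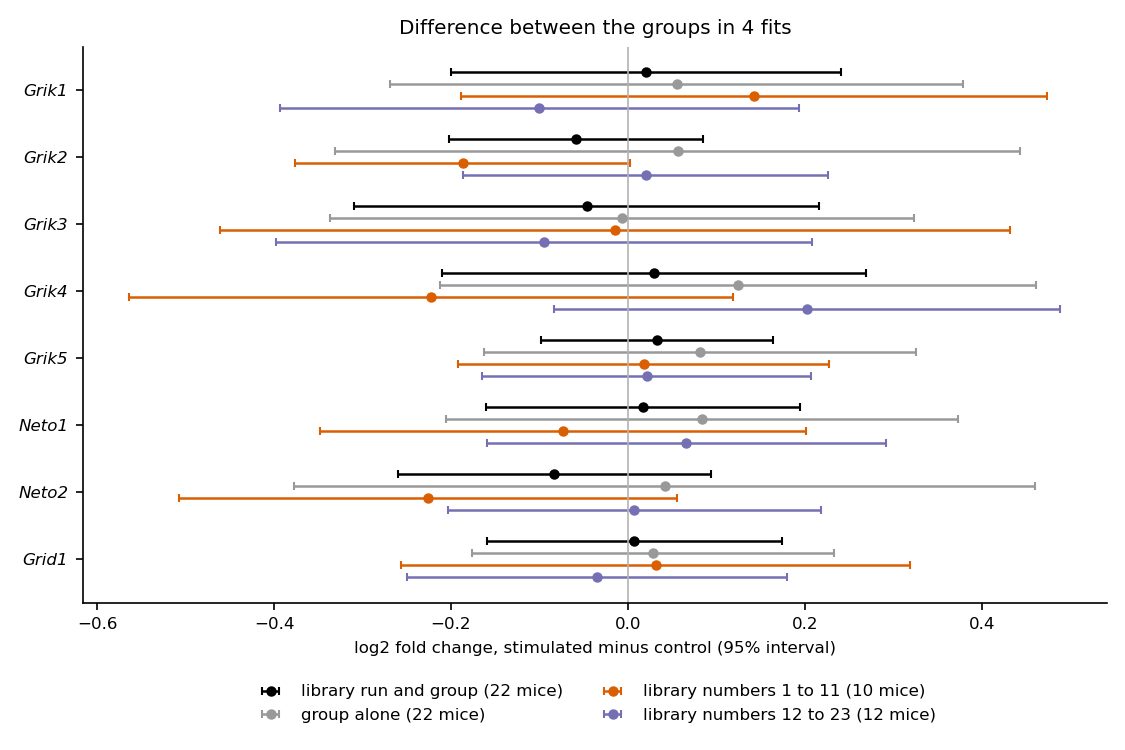
Log2 fold change of each member, stimulated minus control, with its 95% interval in 4 fits (run and group, group alone, and each run of library numbers alone). Each of the 32 intervals contains 0, and the point for Grik4 lies at −0.22 in library numbers 1 to 11 and at 0.20 in 12 to 23.

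A much larger difference separated the runs of library numbers, which is not a comparison of the study. All 8 members were higher in numbers 12 to 23 at an adjusted p under 0.05 (edgeR, with group as covariate), beside 33.7% of all genes, where 5909 were higher and 6018 lower. The median log2 fold change was 0.53 over the members and −0.03 over all genes. Neto2 led with 0.91 ± 0.09 (SE; adjusted p = 9.62e-10) and Grik2 followed with 0.86 ± 0.07 (adjusted p = 6.44e-11), placing them at percentiles 90.7 and 89.2 of all genes. Neto2 had 29.6 to 50.2 CPM in the first run (median 37.7) and 61.5 to 86.1 CPM in the second (median 69.1), and Grik2 25.4 to 34.4 CPM (median 30.3) and 40.1 to 63.1 CPM (median 53.6). These 2 genes did not overlap between the runs, and the share of all genes without overlap was not computed. The other 6 ran from 0.23 ± 0.08 for Grid1 (adjusted p = 0.0159) to 0.55 ± 0.12 for Grik4 (adjusted p = 0.000181).

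All 8 members also passed with DESeq2 size factors, the DESeq2 Wald test and limma voom. Of the other 10 ionotropic glutamate receptor subunits tested, 8 were higher in the second run at an adjusted p under 0.05 and 0 lower, with a median of 0.53. Because Neto2 shifted more than Neto1, the ratio of Neto1 to Neto2 RPKM within a mouse was 0.758 ± 0.121 (SD, n = 10) in the first run and 0.577 ± 0.04997 (SD, n = 12) in the second. By group the ratio was 0.646 ± 0.135 (n = 12) in controls and 0.675 ± 0.122 (n = 10) in stimulated mice. The share of counts on mitochondrial genes had a median of 2.21% in the first run and 1.12% in the second. Some marker sums differed between the runs as well. Their medians were 3617 and 7029 CPM for excitatory neurons and 69.1 and 180 CPM for oligodendrocyte progenitors. Inhibitory neuron markers went the other way, at 1184 and 881 CPM. The part of the mitochondrial share and of the marker sums in the shift of the members was not tested.

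**Figure D4:**
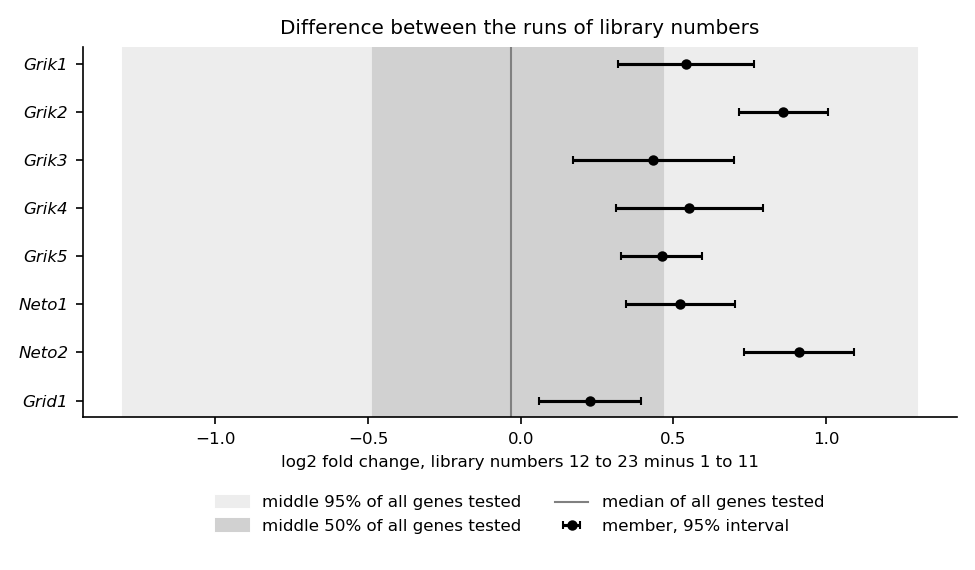
Log2 fold change of each member between the runs of library numbers (12 to 23 minus 1 to 11) with its 95% interval, over bands that hold the middle 50% and 95% of all 17524 genes. The 8 points lie between 0.23 and 0.91, to the right of the median of all genes at −0.03.

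Variation among mice was examined after centring log2 CPM within run and group, so that neither sets a correlation. Of the 28 pairs of members 20 had a correlation above 0, and 3 passed an adjusted p of 0.05 (two-sided permutation tests within run and group, 100000 resamples, n = 22). The share of all pairs of genes that pass was not computed, so these counts do not set the members apart. The r of the 3 pairs is set beside all genes further below. Grik3 and Neto1 had r = 0.74 (adjusted p = 0.0102) and Spearman rho = 0.77 (adjusted p = 0.0049). Their r was 0.79 in the first run and 0.70 in the second, and 0.77 without the 2 mice farthest from the median of Grik3. Grik1 and Grid1 had r = 0.71 (adjusted p = 0.0102) and rho = 0.74 (adjusted p = 0.0049), with 0.60 and 0.83 in the runs and 0.71 without 2 mice. Grik3 and Grid1 had r = 0.70 (adjusted p = 0.0223) and rho = 0.66 (adjusted p = 0.0335), with 0.82 and 0.53 in the runs and 0.62 without 2 mice.

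Grik5, the most abundant subunit, had an r below 0 with 5 of the other 7 members. It was −0.59 with Neto1 and −0.46 with Neto2, and neither pair passed the adjusted threshold in a permutation test (adjusted p = 0.0638 and 0.138; for rho −0.56 and −0.41, adjusted p = 0.0996 and 0.224). Grik2 and Grik4 had r = 0.56 (adjusted p = 0.0638, permutation test; rho = 0.35, adjusted p = 0.266), which rested on a few mice: it was 0.05 in the first run, 0.86 in the second, and 0.22 without the 2 mice farthest from the median of Grik2.

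The members also varied with markers of cell types. Each was set against the mean of 9 marker lists over the 22 mice, centred in the same way, and 21 of these 72 relations passed an adjusted p of 0.05 (permutation tests). The share of all genes that relate to these lists as strongly was not computed, so this count does not set the members apart. Grik3 and Neto1 ran against 6 astrocyte markers, such as Aqp4 and Slc1a3, with r = −0.88 for Grik3 (adjusted p = 0.00108, permutation test; rho = −0.86, adjusted p = 0.00144) and r = −0.87 for Neto1 (adjusted p = 0.00072, the smallest the permutations can give; rho = −0.88, adjusted p = 0.00072). Both held in each run, at −0.91 and −0.83 for Grik3 and −0.93 and −0.81 for Neto1, and at −0.86 and −0.85 without the 2 mice farthest from the median of the markers. Grid1 ran against the same list (r = −0.60, adjusted p = 0.0430, permutation test; rho = −0.67, adjusted p = 0.0287), at −0.77 in the first run and −0.37 in the second. The 6 microglia markers gave r = −0.80 with Neto1 (adjusted p = 0.00774, permutation test; rho = −0.86, adjusted p = 0.00144), −0.74 with Grik3 (adjusted p = 0.0120; rho = −0.76, adjusted p = 0.00648), −0.62 with Grid1 (adjusted p = 0.0245; rho = −0.68, adjusted p = 0.0165) and 0.66 with Grik5 (adjusted p = 0.0236; rho = 0.64, adjusted p = 0.0320), and −0.80, −0.68, −0.66 and 0.62 without 2 mice. The 5 endothelium markers ran against Grik3 and Neto1, with r = −0.67 for each (adjusted p = 0.0190 and 0.0245, permutation tests; rho = −0.68 and −0.63, adjusted p = 0.0220 and 0.0320), and −0.63 and −0.53 without 2 mice.

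On the neuronal side, 10 excitatory neuron markers went with Neto1 (r = 0.71, adjusted p = 0.0130, permutation test; rho = 0.73, adjusted p = 0.0145), Grik3 (r = 0.56, adjusted p = 0.0236; rho = 0.59, adjusted p = 0.0332) and Neto2 (r = 0.53, adjusted p = 0.0436; rho = 0.44, adjusted p = 0.139). Without 2 mice these were 0.59, 0.57 and 0.39. The 6 striatal markers, low in every mouse, went with Grik1 (r = 0.69, adjusted p = 0.0130, permutation test; rho = 0.53, adjusted p = 0.0675), Grik3 (r = 0.65, adjusted p = 0.0199; rho = 0.64, adjusted p = 0.0263) and Neto1 (r = 0.54, adjusted p = 0.0390; rho = 0.58, adjusted p = 0.0332), and gave 0.62, 0.65 and 0.58 without 2 mice.

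Inhibitory neuron markers, among them Gad1, Pvalb and Sst, went with Neto1 (r = 0.69, adjusted p = 0.0166, permutation test; rho = 0.70, adjusted p = 0.0174), Grid1 (r = 0.64, adjusted p = 0.0166; rho = 0.71, adjusted p = 0.00648) and Grik1 (r = 0.58, adjusted p = 0.0400; rho = 0.63, adjusted p = 0.0320). Grik5 ran against the same list (r = −0.65, adjusted p = 0.0236, permutation test; rho = −0.60, adjusted p = 0.0359). Without the 2 mice farthest from the median of the list these were 0.64, 0.66, 0.59 and −0.50. Oligodendrocyte markers, with Mbp and Mog among 10, ran against Grik4 (r = −0.73, adjusted p = 0.0012, permutation test; rho = −0.70, adjusted p = 0.00648), at −0.77 and −0.86 in the runs and −0.69 without ctrl replicates 9 and 11. The same list gave r = −0.73 with Grik2 (adjusted p = 0.0236), but rho = −0.42 (adjusted p = 0.178, permutation test), with 0.23 in the first run and −0.89 in the second, and −0.52 without these mice, so that the relation of Grik2 rested on them and on the second run.

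The share of counts on mitochondrial genes also moved with 5 of the 8 members over the mice (log2 of the share, centred in the same way, p adjusted over 8 permutation tests). How many of all genes move with it was not computed, so this count does not set the members apart. Neto1 had r = −0.86 (adjusted p = 0.00024, permutation test; rho = −0.85, adjusted p = 0.00024), with −0.93 and −0.79 in the runs, and Grik3 r = −0.72 (adjusted p = 0.00456; rho = −0.70, adjusted p = 0.00523), with −0.79 and −0.61. Grid1 had −0.58 (adjusted p = 0.0149; rho = −0.66, adjusted p = 0.0046), Grik1 −0.52 (adjusted p = 0.0469; rho = −0.56, adjusted p = 0.0427) and Grik5 0.62 (adjusted p = 0.0210; rho = 0.54, adjusted p = 0.0480). Without ctrl replicates 1 and 2, the mice with the highest shares (4.41% and 4.81%), these were −0.80, −0.64, −0.54, −0.50 and 0.46. So each gene of the 3 pairs above moved with this share. The values of a mouse come from 1 library and share its total, and the part of the markers and of the mitochondrial share in the pairs of members was not tested.

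**Figure D5:**
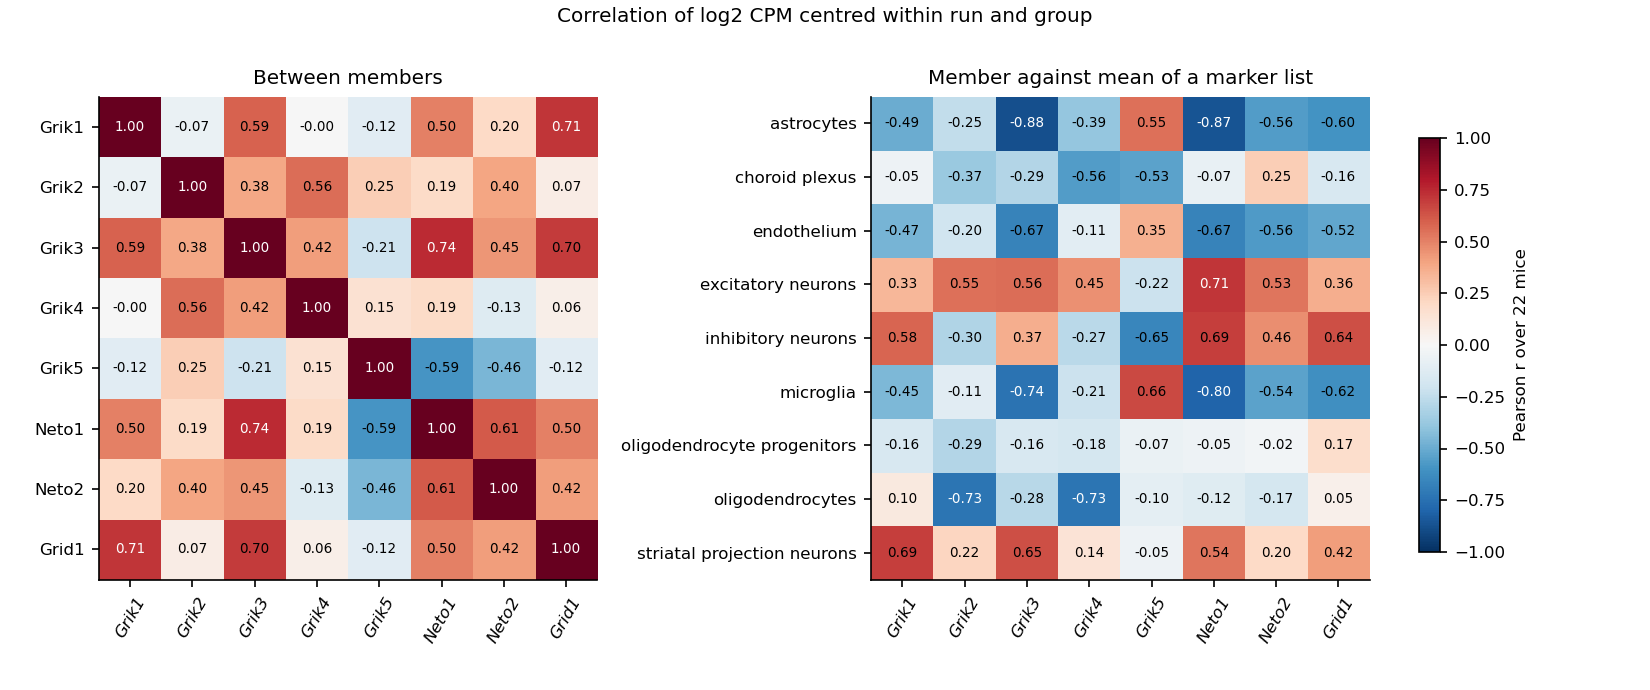
Pearson r of log2 CPM centred within run and group over 22 mice, between members (left) and between each member and the mean of a cell type marker list (right), from blue at −1 to red at 1. Grik3 and Neto1 are red with each other (0.74) and dark blue against astrocyte markers (−0.88 and −0.87), and Grik5 is blue with Neto1 (−0.59).

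Between groups, the marker lists gave the following values beside the members. All 10 oligodendrocyte markers were lower in the stimulated group, each with an unadjusted p under 0.05 and 0 past the adjusted threshold (edgeR). Their log2 fold change had a median of −0.69, and they had sums of 3232 to 19856 CPM in controls (median 5163) and 2372 to 5847 CPM in stimulated mice (median 4127). Without ctrl replicates 9 and 11 the median was −0.10 and 1 of the 10 had an unadjusted p under 0.05, with sums of 3232 to 6331 CPM in the other 10 controls (median 4717). Of 8 inhibitory markers 7 were higher, 3 of them at an unadjusted p under 0.05, and of 10 excitatory markers 7 were higher, 2 of them at that level, while 1 was lower at it. Without ctrl replicates 9 and 11, 6 excitatory markers were higher, 1 of them at that level, and 1 was lower at it. All 6 astrocyte markers and all 4 of oligodendrocyte progenitors were lower, 0 of them at an unadjusted p under 0.05. Of the 6 microglia markers 5 were higher, of the 5 of endothelium 4 were lower, and of the 6 striatal markers 5 were higher, 0 of them at that level. The 3 choroid plexus markers tested were lower, 2 at an unadjusted p under 0.05, with sums of 3.99 to 132 CPM in controls and 5.19 to 17.0 CPM in stimulated mice. Their part in the values of the members was not tested.

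For each member the genes of most similar pattern were taken among 14524 genes with a mean of at least 1 CPM, by Pearson r over the 22 mice after centring. Neto1 was most like Chmp7 (r = 0.94), Ythdf2 (0.94) and Camta1 (0.94), and Grik3 most like Dpysl5 (0.94), Golgb1 (0.92) and Nptx1 (0.91). Grik5 was most like Ppp2r2c (0.90), Apba1 (0.90) and Rims4 (0.89), and Neto2 most like Fut9 (0.90), Ubr3 (0.88) and Fam126b (0.88). Grik4 stood nearest to Trp53i11 (0.88), Spata13 (0.86) and Rimbp2 (0.85), and Grid1 nearest to Nipal3 (0.88), Soga3 (0.85) and Gtf2i (0.84). Grik2 was nearest to Adgrb3 (0.82), Kcna3 (0.82) and Ptprf (0.80), and Grik1 to Rps4l (0.79), Pelp1 (0.79) and Kcnip3 (0.78). No member was among the 3 nearest of another. The median r with all these genes lay between −0.04 and 0.04 for each member, and the highest 2.5% began at 0.57 for Grik2 and at 0.87 for Neto1, so high values came more easily to Neto1 than to Grik2. Against this, the r of 0.74 between Grik3 and Neto1 was below the level at which the highest 2.5% began for either gene (0.76 and 0.87), while the r of 0.71 between Grik1 and Grid1 was above it for both (0.60 and 0.64). The r of 0.70 between Grik3 and Grid1 was below it for Grik3 and above it for Grid1.

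Partners of these receptors were taken as a list of 27 genes, of which 26 were tested. Between stimulated mice and controls 14 were higher and 12 lower, 1 of the former and 3 of the latter with an unadjusted p under 0.05, beside the 11.5% of all genes, and 0 passed the adjusted threshold (edgeR). Kif17, a kinesin that carries GluK2-containing receptors and NMDA receptors along dendrites, had 19.8 to 34.6 CPM in controls (median 30.1) and 26.6 to 42.8 CPM in stimulated mice (median 35.04). Its log2 fold change was 0.20 ± 0.07 (unadjusted p = 0.00875, adjusted p = 0.349, edgeR). In library numbers 1 to 11 the stimulated mice, at 26.6 to 30.2 CPM, lay inside the range of controls (19.8 to 32.1 CPM), with a log2 fold change of 0.14 (unadjusted p = 0.273). In numbers 12 to 23 the groups overlapped at the edge, with 27.8 to 34.6 CPM in controls and 34.5 to 42.8 CPM in stimulated mice, and a log2 fold change of 0.22 (unadjusted p = 0.0106, edgeR). The 2 effects differed by 0.13 ± 0.14 (unadjusted p = 0.377, edgeR interaction).

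Cbln4, a cerebellin that bridges neurexins and postsynaptic receptors, had 8.56 to 20.3 CPM in controls (median 15.2) and 5.25 to 19.3 CPM in stimulated mice (median 11.7), and a log2 fold change of −0.37 ± 0.16 (unadjusted p = 0.0267, adjusted p = 0.383, edgeR). C1ql2, a secreted C1q-like protein that binds kainate receptors at mossy fibre synapses, gave −0.88 ± 0.37 (unadjusted p = 0.0276, adjusted p = 0.385, edgeR), from 1.80 to 13.6 CPM in controls (median 2.62) and 0.456 to 3.81 CPM in stimulated mice (median 1.72). Its highest values, 13.6 and 5.71 CPM, were those of ctrl replicates 9 and 11, and without them its log2 fold change was −0.35 ± 0.28 (unadjusted p = 0.235), while Kif17 stayed at 0.20 ± 0.08 and Cbln4 at −0.36 ± 0.17. By run C1ql2 gave 0.15 in library numbers 1 to 11 (unadjusted p = 0.571) and −1.79 in 12 to 23 (unadjusted p = 0.00278, edgeR), which differed by −1.89 ± 0.64 (unadjusted p = 0.00718, adjusted p = 0.558, edgeR interaction), and by −1.03 ± 0.55 without ctrl replicates 9 and 11 (unadjusted p = 0.0720). For a difference between the runs, 8.01% of all genes had an unadjusted p under 0.05. C1ql2 and Cbln4 also had the largest changes in size among the partners tested.

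The scaffold genes Dlg1, Dlg3 and Dlg4, the presynaptic genes Nrxn2 and Nrxn3, the cerebellins Cbln1 to Cbln3 and the editing enzymes Adar and Adarb1, of which Adarb1 recodes Grik1 and Grik2 transcripts, were among the 22 partners with an unadjusted p over 0.05. Of the other 10 ionotropic glutamate receptor subunits tested 8 were higher and 2 lower in stimulated mice, with log2 fold changes from −0.10 for Grin2c to 0.12 for Grin2b and 0 at an unadjusted p under 0.05.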

How the data were processed

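RNA was sequenced from 22 ACC samples, each a separate mouse by its label. Full-length cDNA was amplified from total RNA and read from one end, with no molecular identifiers, so the counts are of reads. Per the submitters' processing notes and the methods of the study, the authors used cutadapt 1.10 for trimming, STAR 2.5.3a for alignment to mm10 and HTSeq 0.6.1p1 to count the uniquely aligned reads of each gene, and deposited these whole-number counts without normalization. The authors also deposited the same counts divided by size factors (a signal, not used in tests) and the fold changes (log2) and raw and adjusted p-values of a DESeq2 1.22.1 comparison, which were not used. There were 0 other columns of per-sample values. The strand setting of the counting is not given in the sources used here. Exons of Grik4, Neto1, Neto2 and Grid1 share 59, 219, 20 and 91 bases with small or antisense genes.

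Counts were tested with edgeR 4.0.16 in R 4.3.3 (TMM, glmQLFit, glmQLFTest, Benjamini-Hochberg over all genes past the minimum), with library run and group as terms. RNA integrity, a covariate of the study, is not in the labels. The SE of a log2 fold change was its size over the root of F, and intervals are at 95%. CPM used TMM-scaled totals, log2 CPM a prior count of 2, and RPKM lengths came from GENCODE M21 on GRCm38. Fits were tested on simulated data with known changes larger than those of the members, so changes of the members' size were not simulated. Correlations were tested on simulated data with either no correlation or a strong one, and sizes between were not simulated. Correlations were computed in Python 3.11.15 with numpy 2.4.6. Alternatives were DESeq2 1.42.0, limma 3.58.1 voom, 1 surrogate variable from sva 3.50.0, other count minimums, a replicate block, each run alone and each mouse left out. The smallest mean chi-square per gene between any 2 of the libraries was 10.0, so none were treated as 1 library. Named genes are all members, partners at an unadjusted p under 0.05 or among the 3 largest in size, and the 3 genes most like each member. Of the partners so named, 1 is not reported here. The members, partner and marker lists were chosen with earlier results of these data known. The fits without ctrl replicates 9 and 11, the relations with marker lists and the mitochondrial share, and the promoters shown were added after seeing the data.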

Additional observations from a re-analysis of the deposited data

Results flagged for a closer look

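Grik3 in stim replicate 4 stood apart within the 4 stimulated mice of library numbers 1 to 11, at 45.9 CPM against 26.4 to 27.9 CPM in the other 3. It was the 1 mouse so placed in 40 groups examined, where chance would place about 5% of groups. These were, for each member, both groups within each run and the stimulated mice across runs, with 4 to 10 mice. Controls were not examined across runs. Without this mouse the log2 fold change of Grik3 was −0.14.

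The effect of stimulation on Grik4 differed between the runs by 0.47 on the log2 scale (unadjusted p = 0.0399, adjusted p = 0.607, edgeR interaction), with −0.22 in library numbers 1 to 11 and 0.20 in 12 to 23. It was 1 of 8 members at an unadjusted p under 0.05 for this difference, beside 8.01% of all genes. Without ctrl replicates 9 and 11 the difference was 0.31 (unadjusted p = 0.139).

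Among the partners named, the effect on C1ql2 differed between the runs by −1.89 on the log2 scale (unadjusted p = 0.00718, adjusted p = 0.558, edgeR interaction), with 0.15 in library numbers 1 to 11 and −1.79 in 12 to 23. This difference was examined only in partners picked by their values between groups, and 8.01% of all genes had an unadjusted p under 0.05 for it. Without ctrl replicates 9 and 11 the difference was −1.03 (unadjusted p = 0.0720).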

How the results depend on the processing

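No member passed an adjusted p of 0.05 under any alternative run. Genes passing it numbered 0 with edgeR, 33 with the DESeq2 Wald test, 1 with limma voom, 1 without ctrl replicates 9 and 11, and 0 to 1 when each mouse was left out in turn, the 1 arising without ctrl replicate 9. Members at an unadjusted p under 0.05 numbered 1 of 8 (Grik2) without ctrl replicates 9 and 11, where 1430 of 17524 genes did, and 0 in the other alternatives. All genes at an unadjusted p under 0.05 numbered 2015 in the fit with run and group, 3687 with every gene that had a count, 632 with group alone and 974 in library numbers 1 to 11.

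The small fold changes of several members turned sign, with the cause not tested. Grid1 was −0.0063 with limma voom, −0.0037 with at least 10 counts in every mouse, −0.0204 with the surrogate variable and −0.0351 in library numbers 12 to 23. With group alone Grik2 was 0.0561 and Neto2 0.0417, and in numbers 12 to 23 they were 0.0202 and 0.0074. Grik1 was −0.0444 with the surrogate variable and −0.10 in numbers 12 to 23. Grik4 was −0.22 in numbers 1 to 11 and −0.0655 without ctrl replicates 9 and 11, and Neto1 −0.0734 in numbers 1 to 11. Leaving out each mouse, Grik1 ranged from −0.0394 to 0.0609, Grik4 from −0.0329 to 0.0812, Neto1 from −0.0123 to 0.0556 and Grid1 from −0.0340 to 0.0418, while Grik2, Grik3, Grik5 and Neto2 kept their sign.

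Both groups carry replicate numbers 1 to 10. With the replicate block and the run, 0 members and 0 genes passed the adjusted threshold and 1980 genes had an unadjusted p under 0.05. With the replicate block without the run there were 1291 such genes, and Grik2 was 0.0972 and Neto2 0.0850. Deviations of same-numbered mice correlated at 0.308 on average around group means, over 0.1 in 8 of 10 pairs, and at 0.0511 within runs, over 0.1 in 3 of 10, so the numbers were not taken to pair the mice.

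Pairs of members with an adjusted p under 0.05 numbered 3, and 7 with DESeq2 size factors and 0 in library numbers 1 to 11 alone (10 mice). Members had 257 or more counts in each library, and the intervals of their fold changes carry counting error and the spread between mice together.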
